A study of Mus musculus with 45 samples.

Results

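The 10 genes described here encode the enzymes that build, lengthen and desaturate fatty acids in the cytosol and endoplasmic reticulum: Acly, Acaca, Fasn, Elovl6, Elovl5, Elovl1, Scd1, Scd2, Fads1 and Fads2. They were chosen by name for their place in the pathway, and all 10 were found among the 29307 genes counted. Bone marrow-derived macrophages (BMDMs) were grown for 6 days with M-CSF from C57BL/6N mice aged 6 to 10 weeks that carried Faminp.254I, Faminp.284R or Faminp.254V, alleles of a gene for a purine-metabolizing enzyme. Cells were left unstimulated (M0) or treated for 24 h with 50 ng/mL IFN-γ plus 20 ng/mL LPS (M1) or with 20 ng/mL IL-4 (M2). RNA of 5 mice per genotype gave 9 groups of 5 libraries, 45 in all, and libraries sharing a genotype and number were taken as the 3 cultures of 1 mouse. These are macrophages matured in culture, so no tissue environment is represented. The question asked of the genes was how their transcripts differ between the 3 polarization states and between the 3 genotypes.

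Fatty acid synthesis starts from citrate, which ATP citrate lyase (Acly) splits to give cytosolic acetyl-CoA. Acetyl-CoA carboxylase (Acaca) turns this into malonyl-CoA, and fatty acid synthase (Fasn) condenses the malonyl units, at the cost of NADPH, into palmitate. Elongases (Elovl genes) then add carbon pairs, stearoyl-CoA desaturases (Scd genes) place a double bond in saturated chains, and the Fads desaturases act on the polyunsaturated chains obtained from the diet. The transcription factors SREBP1 and SREBP2 and the liver X receptors are known to drive most of these genes, and IL-4 and inflammatory stimuli are known to alter lipid metabolism in macrophages.

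Promoter sequence is shown for 4 members that had a higher level in M2 than in M0, so that the letters upstream of genes that moved together can be read. Acaca rose too and is left out because its window, which lies inside the gene, held 0 of the letters marked. The windows are the 250 bases before the RefSeq start, on the gene's strand, in build GRCm38.p6, and capitals mark matches, on either strand, of the CCAAT box bound by NF-Y, of the E-box form CACGTG bound by SREBP1 among others, and of the GC box GGGCGG bound by Sp1.
Fasn, chr11:120824548-120824797, minus strand: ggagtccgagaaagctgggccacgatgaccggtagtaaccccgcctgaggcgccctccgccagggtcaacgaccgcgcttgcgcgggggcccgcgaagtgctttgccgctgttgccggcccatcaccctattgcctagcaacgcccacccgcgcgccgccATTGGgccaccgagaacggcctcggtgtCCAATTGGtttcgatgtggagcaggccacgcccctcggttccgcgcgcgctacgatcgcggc
Acly, chr11:100528001-100528250, minus strand: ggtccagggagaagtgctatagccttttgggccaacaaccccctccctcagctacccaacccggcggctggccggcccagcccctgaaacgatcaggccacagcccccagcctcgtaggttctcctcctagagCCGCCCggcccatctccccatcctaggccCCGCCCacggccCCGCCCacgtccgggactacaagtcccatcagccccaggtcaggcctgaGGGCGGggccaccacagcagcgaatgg
Elovl5, chr9:77917115-77917364, plus strand: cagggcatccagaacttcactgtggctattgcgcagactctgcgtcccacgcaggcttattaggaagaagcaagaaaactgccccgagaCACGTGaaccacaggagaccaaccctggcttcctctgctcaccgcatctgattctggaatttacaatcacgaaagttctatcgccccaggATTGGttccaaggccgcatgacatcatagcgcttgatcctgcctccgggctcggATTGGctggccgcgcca
Elovl1, chr4:118427843-118428092, plus strand: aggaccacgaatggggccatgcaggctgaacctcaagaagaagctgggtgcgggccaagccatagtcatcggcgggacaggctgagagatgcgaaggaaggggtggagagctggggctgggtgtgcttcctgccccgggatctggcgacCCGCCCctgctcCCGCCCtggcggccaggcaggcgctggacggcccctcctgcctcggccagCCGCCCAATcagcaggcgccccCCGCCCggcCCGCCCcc

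Counted from the start (-1 is the base just before it), Fasn held CCAAT at -62 to -58 and, on the other strand, at -90 to -86 and at -59 to -55, the last of these overlapping the first. Elovl5 held it on the other strand at -71 to -67 and at -17 to -13, beside a CACGTG at -161 to -156. Elovl1 held it at -35 to -31, overlapping by its first letters a GGGCGG on the other strand at -39 to -34. On that other strand Elovl1 also held GGGCGG at -101 to -96, -89 to -84, -17 to -12 and -8 to -3. A second window of Elovl1, at chr4:118429451-118429700, is not shown. It held GGGCGG at -48 to -43 and -37 to -32 and no CCAAT. Acly held GGGCGG on the other strand at -117 to -112, -88 to -83 and -76 to -71 and on its own strand at -27 to -22. Windows of this length were given for 7 of the 10 members, 8 windows in all. CCAAT on either strand was in 3 of the 8 and in 33.8% of all 32851 RefSeq promoter windows. GGGCGG was in 4 (Acly, Fads2 and both of Elovl1) and 32.7%, and CACGTG in 1 and 6.02%. The sterol response letters TCACNCCAC were in 0 of the 8 and in 1.05% of all windows. These are matches of letters and not binding sites, and the factors themselves were not measured at these windows.

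In mm10 with the GENCODE vM21 annotation, 3 of the genes lie on chromosome 11, Acaca at chr11:84129672-84401651 (plus strand), Acly at chr11:100476353-100528000 (minus) and Fasn at chr11:120805846-120824547 (minus). Both Scd and both Fads genes lie on chromosome 19, Fads2 at chr19:10062765-10101746 (minus), Fads1 at chr19:10182888-10196877 (plus), Scd2 at chr19:44293674-44306864 (plus) and Scd1 at chr19:44394455-44407879 (minus). Elovl6 is at chr3:129532355-129638495, Elovl1 at chr4:118428093-118432953 and Elovl5 at chr9:77917364-77984519, all on the plus strand.

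The libraries held 17239009 to 43740283 counts, and 1 CPM (a count scaled to the effective library size, after TMM) stood for 16.4 to 48.2 reads. Macrophage markers summed to 9532 CPM or more in every library, M1 markers to 1264 to 5776 CPM in M1 and at most 30.5 CPM elsewhere, and M2 markers to 4434 to 14156 CPM in M2 and at most 913 CPM elsewhere. Among the markers of other cells, adipocyte markers reached at most 0.22 CPM in M0, 0.0513 CPM in M1 and 2.09 CPM in M2, where 1 gene of the 6, the adipokine Adipoq, reached 1 CPM and Lep was at 0. The dendritic cell list summed to 208 to 432 CPM in M1, against at most 2.18 CPM in M0, with 2 of 5 genes at 1 CPM or more (Clec9a and Xcr1) and with Flt3 and Ccr7 at no more than 0.396 CPM, and to 4.14 to 14.01 CPM in M2. Neutrophil markers spanned 25.6 to 274 CPM in M0, 39.9 to 133 CPM in M1 and 15.8 to 72.3 CPM in M2, and fibroblast markers 17.4 to 92.2, 6.87 to 21.1 and 10.1 to 34.1 CPM. B and T cell markers lay at 28.2 to 56.0, 12.5 to 20.5 and 4.97 to 10.4 CPM, and mast cell markers at no more than 0.137 CPM. Their part in the results was not tested, and in bulk RNA a change in the share of a cell type and a change in RNA per cell cannot be told apart.

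A set of 4 M1 libraries stood apart by a low Nos2 level or by M2 markers. The 3 numbered 2, one of each genotype, held 3.01 to 8.60 CPM of Nos2, the inducible nitric oxide synthase that marks M1 cells, against 17.8 to 149 CPM in the other 12. Among those 12, Faminp.284R numbers 3, 4 and 5 held 81.5, 149 and 131 CPM, and the next highest library held 26.0 CPM. These Faminp.284R libraries enter the M1 genotype comparisons below and were not left out as a set. The M1 library of Faminp.254I number 5 held 40.8 CPM of Arg1 and 49.1 CPM of Retnla, both markers of M2 cells, against at most 0.912 and 0.249 CPM in the other M1 libraries and at least 705 and 1287 CPM in M2. No call of a member changed without the 3 mice numbered 2 in all states, or without this library of Faminp.254I number 5 alone. The 4 M1 libraries were not left out together. Values are given below for the genes that moved most.

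The levels of the members differed more between genes than between conditions. On the scale of CPM per kilobase of annotated exon, which allows genes to be compared, Elovl1 (40.4 ± 1.85, SD, n = 15) and Acly (39.0 ± 2.20) led in M0, followed by Fads1 (26.6 ± 1.45), Elovl5 (21.6 ± 1.62) and Scd2 (14.6 ± 2.72). Fasn (3.71 ± 0.454) and Fads2 (3.37 ± 1.10) came next, and Scd1 (1.07 ± 0.206), Elovl6 (0.993 ± 0.185) and Acaca (0.569 ± 0.0627) were lowest. The ranges of neighbours overlapped in this order except between Acly and Fads1, between Scd2 and Fasn and between Elovl6 and Acaca. In M2 Scd2 stood first, at 106 ± 24.01 CPM per kilobase, above Elovl1 (57.0 ± 2.95) with no overlap, Elovl5 (28.1 ± 1.16) stood above Fads1 (22.9 ± 1.39) with no overlap, and Acaca had a higher mean than Elovl6 (0.973 and 0.697) with overlap. In M1 Scd2 also had the highest mean (58.5 ± 15.8), but its range overlapped that of Elovl1 (51.4 ± 2.49). The exons of Acaca add up to 17074 bases over all its annotated transcripts, so its level per kilobase is understated if most transcripts are shorter.

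**Figure D1:**
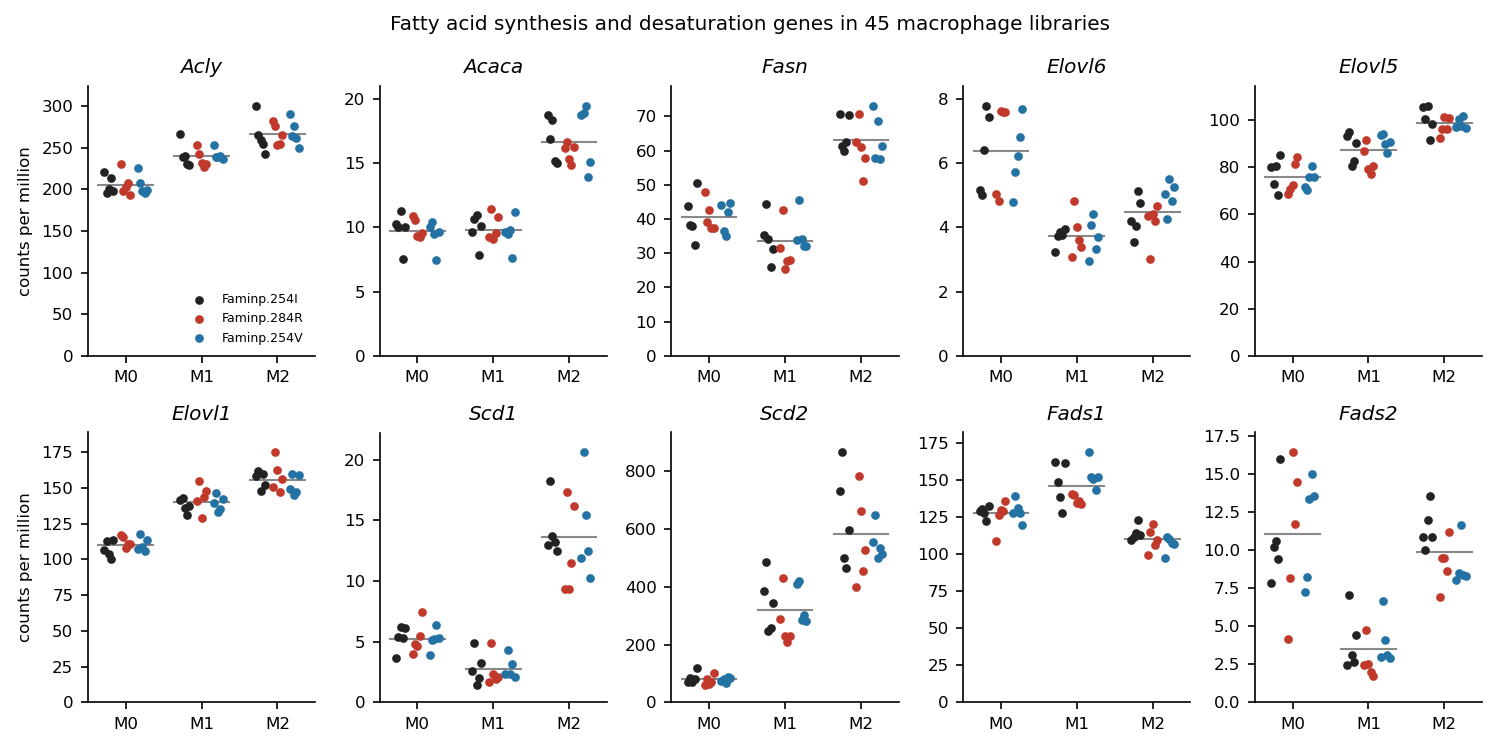
Normalized level (vertical axis, CPM from 0) of each of the 10 genes in 45 libraries, by polarization (horizontal axis) and genotype (colour, 5 mice each), with the mean of 15 libraries as a grey line. Scd2 rises from 59.3 to 118 CPM in M0 to 208 to 485 CPM in M1 and 399 to 863 CPM in M2, while its ranges in the 3 genotypes overlap within each polarization.

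The genes of M1 and M0 macrophages were compared first. Scd2, the desaturase form that predominated in these cells, rose most among the members, whereas its relative Scd1, the desaturase Fads2, the elongase Elovl6 and Fasn fell. Of the 10 members, 5 were higher in M1 (Scd2, Elovl1, Acly, Elovl5 and Fads1), 4 were lower and Acaca was not called, by edgeR's quasi-likelihood test at a Benjamini-Hochberg adjusted p under 0.05 over 12905 genes. Of all genes tested, 37% were called higher and 40.3% lower, so the number of members called was near that of genes at large. The median log2 fold change of the members was 0.10, against -0.03 for all genes tested.

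In M2 against M0, the 3 enzymes from citrate to palmitate, both Scd genes, Elovl5 and Elovl1 rose together, and Elovl6 and Fads1 fell. Thus 7 of 10 members were called higher and 2 lower, where 36.8% of all genes were called higher and 39.6% lower, and Fads2 was not called. The members' median log2 fold change was 0.44, against -0.03 for all genes. Between the polarized states, 9 members were lower in M1 than in M2 and Fads1 was higher, with a median log2 fold change of -0.51, where 39% of all genes were higher and 40.1% lower. The 3 comparisons share libraries pairwise, so their counts are not independent.

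**Figure D2:**
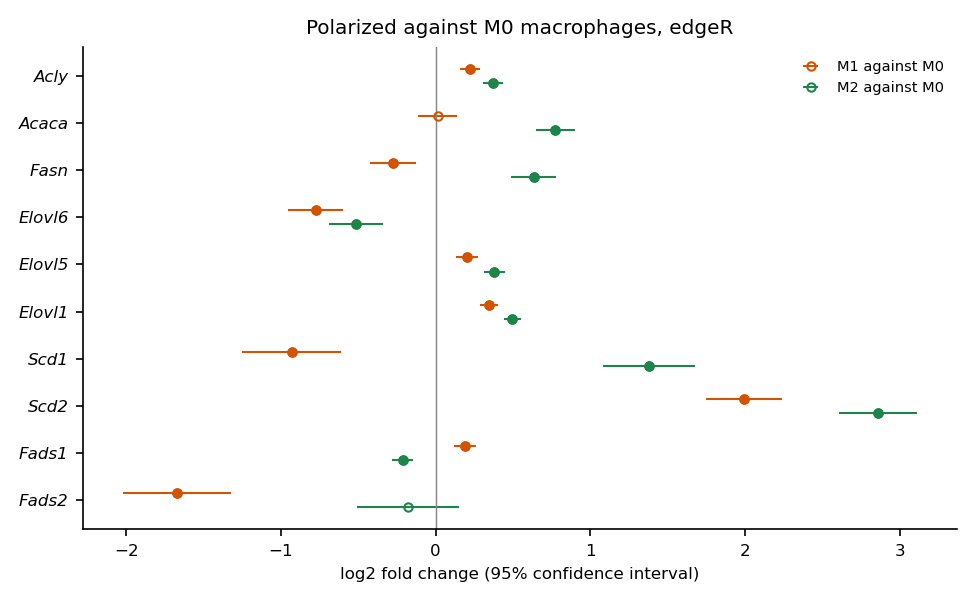
Log2 fold change (horizontal axis) with its 95% confidence interval of each member in M1 (orange) and M2 (green) against M0, as means over the 3 genotypes, with filled points for an adjusted p under 0.05. Scd2 is right of 0 in both comparisons (1.99 and 2.86), Scd1 and Fasn lie on opposite sides of 0, and Elovl6 is left of 0 in both.

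Among the enzymes that make palmitate, Acly, the source of cytosolic acetyl-CoA, lay at 193 to 230.0 CPM in M0 (median 201), 227 to 266 CPM in M1 (median 239) and 242 to 300.2 CPM in M2 (median 264). Its level was higher in 15 of 15 mice in both polarized states, by 1.17-fold in M1 (log2 fold change 0.22, SE 0.03, edgeR adjusted p = 6.2e-08) and 1.29-fold in M2 (0.37, SE 0.03, adjusted p = 1.7e-13). Acaca, which makes malonyl-CoA, spanned 7.43 to 11.3 CPM in M0 and 7.58 to 11.4 CPM in M1, ranges that almost coincide, and 13.9 to 19.4 CPM in M2. The M2 values lay above all of the others, 1.71-fold over M0 (log2 fold change 0.77, SE 0.06, adjusted p = 2.3e-14). For M1 the log2 difference of Acaca was 0.01 with a 95% confidence interval of -0.11 to 0.14 (adjusted p = 0.86). Of the 50-base stretches in Acaca transcripts, 30.4% also occur in transcripts of other genes, so its counts are less certain than those of Acly and Fasn, which share none.

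Fasn, the synthase itself, was at 32.3 to 50.4 CPM in M0 (median 39.1), 25.5 to 45.5 CPM in M1 (median 32.1) and 51.2 to 73.0 CPM in M2 (median 61.4). M2 did not overlap with either of the others and was 1.55-fold above M0 (log2 fold change 0.63, SE 0.07, adjusted p = 4.2e-10), with a higher level in 15 of 15 mice. In M1 it was 1.21-fold lower (-0.28, SE 0.07, adjusted p = 0.00086), in 12 of 15 mice. The 3 mice in which it was not lower were those numbered 2, at 38.3 CPM in M0 and 44.3 CPM in M1 in Faminp.254I, 39.1 and 42.6 CPM in Faminp.284R and 36.5 and 45.5 CPM in Faminp.254V. Without the 3 mice numbered 2, the log2 fold change in M1 was -0.40 (adjusted p = 2.0e-06).

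The elongases did not move alike. Elovl6, which extends palmitate to stearate, fell from 4.79 to 7.78 CPM in M0 to 2.95 to 4.82 CPM in M1, by a factor of 1.71 (log2 fold change -0.77, SE 0.09, adjusted p = 2.2e-10), and it was lower in 15 of 15 mice. In M2 it spanned 3.02 to 5.51 CPM, 1.43-fold under M0 (-0.51, SE 0.09, adjusted p = 1.5e-06), with 14 of 15 mice lower. It was the only member called lower in both polarized states.

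Elovl5, which lengthens polyunsaturated chains, had medians of 75.7, 89.7 and 98.3 CPM in M0, M1 and M2 (log2 fold change 0.20, SE 0.03, in M1 and 0.38, SE 0.03, in M2, adjusted p = 1.3e-06 and 5.8e-13). Elovl1, which makes very long saturated and monounsaturated chains, had medians of 111, 141 and 156 CPM (0.35 and 0.50, SE 0.03 each, adjusted p = 1.5e-14 and 3.8e-19). Its lowest M1 library, at 129 CPM, lay above its highest M0 library, at 118 CPM, which only Scd2 shared among the members in that comparison. Reads of Elovl1 could include those of Cdc20, which overlaps it on the opposite strand, because the use of strand in counting is not given in the sources used here.

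Scd1 and Scd2 lie in 1 cluster on chromosome 19, with Scd4 between them, and both enzymes make oleate and palmitoleate. In M0, Scd2 was at 71.0, 85.8, 69.9, 82.0 and 118 CPM in the Faminp.254I mice 1 to 5, at 59.3, 82.0, 64.6, 71.7 and 101 CPM in Faminp.284R and at 73.6, 81.4, 68.3, 88.6 and 83.5 CPM in Faminp.254V. In M1 the values were 383, 485, 246, 257 and 343 CPM, then 287, 431, 229, 208 and 230.4 CPM, then 408, 419.6, 285, 302 and 280.3 CPM in the same order. In M2 they were 730.3, 863, 499, 465 and 594 CPM, then 399, 783, 662, 453 and 525 CPM, then 554, 647, 499.6, 533 and 512 CPM. Every M1 and M2 library lay above every M0 library, while M1 and M2 overlapped.

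The rise of Scd2 was 3.98-fold in M1 (log2 fold change 1.99, SE 0.12, adjusted p = 2.7e-18) and 7.26-fold in M2 (2.86, SE 0.12, adjusted p = 1.6e-22), and by its size the latter ranked 276 of 12905 genes. Within single mice the M2 level was 5.04 to 10.3 times the M0 level. In all 15 mice Scd2 was lower in M1 than in M2 (-0.87 on the log2 scale, SE 0.12, edgeR adjusted p = 1.2e-08). Taken by genotype, its log2 fold change in M1 was 2.01 in Faminp.254I, 1.87 in Faminp.284R and 2.10 in Faminp.254V, and in M2 it was 2.88, 2.90 and 2.79. Without the 3 mice numbered 2 its log2 fold change was 1.87 in M1 and 2.75 in M2.

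Scd1 was far less abundant and moved in opposite directions. It was at 3.63 to 7.42 CPM in M0 (median 5.29), 1.40 to 4.91 CPM in M1 (median 2.34) and 9.30 to 20.6 CPM in M2 (median 13.0). The fall in M1 was 1.91-fold (log2 fold change -0.93, SE 0.16, adjusted p = 1.3e-06) and was seen in 14 of 15 mice. The rise in M2 was 2.60-fold (1.38, SE 0.15, adjusted p = 6.6e-11) with 15 of 15 mice higher and no overlap. Between M1 and M2 it differed 4.96-fold (log2 fold change -2.31, SE 0.16, adjusted p = 5.7e-17). The fewest reads behind a value were 35, in M1. Without the mice numbered 2 the log2 fold change in M1 was -1.22, and without the M1 library of Faminp.254I number 5 it was -0.95.

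Per kilobase, Scd2 made up 93.1% ± 1.00 (SD, n = 15) of the sum of both genes in M0, 99.1% ± 0.206 in M1 and 97.4% ± 0.542 in M2, and the shares of the 3 states did not overlap. The sum itself was 15.7 ± 2.86 CPM per kilobase in M0, 59.1 ± 16.0 in M1 and 109 ± 24.4 in M2. Because the genes are close relatives, 4.56% of the 50-base stretches in Scd1 transcripts and 3.97% of those in Scd2 also occur in transcripts of other genes, most of all each other and Scd3. Reads from these stretches cannot be assigned to 1 gene with certainty. Scd2 was far more abundant (mean 320 CPM in M1, against 2.76 CPM of Scd1), so a small share of its reads could weigh on Scd1 counts. How such reads were counted is not given. Of the relatives, Scd3 had too few reads to be tested, and Scd4 had a median of 0.102 CPM in M0, 0.714 CPM in M1 and 0.36 CPM in M2. Scd4 was higher in M1 (log2 fold change 2.63, adjusted p = 2.6e-12) and in M2 (1.62, adjusted p = 1.3e-06), and its highest library was at 1.74 CPM.

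The Fads genes, which also lie close together on chromosome 19, diverged as well. Fads2, the delta-6 desaturase that opens the polyunsaturated pathway, was in M0 at 7.84, 10.2, 10.6, 9.43 and 16.0 CPM in Faminp.254I, at 4.15, 8.18, 16.4, 11.8 and 14.5 CPM in Faminp.284R and at 7.26, 8.22, 13.4, 15.002 and 13.5 CPM in Faminp.254V. In M1 it was at 2.44, 7.08, 3.12, 2.63 and 4.41 CPM, then 2.45, 4.74, 2.56, 2.01 and 1.76 CPM, then 2.99, 6.70, 4.10, 3.10 and 2.92 CPM. The mouse numbered 2 had the highest M1 value of each genotype, and these 3 libraries and that of Faminp.254I number 5 were the M1 libraries within the range of M0.

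Fads2 fell 3.18-fold in M1 (log2 fold change -1.67, SE 0.17, adjusted p = 2.3e-11), with 15 of 15 mice lower, and by -2.03 without the mice numbered 2. In M2 it spanned 6.90 to 13.6 CPM inside the range of M0, and the log2 difference was -0.18 with a 95% confidence interval of -0.51 to 0.15 (adjusted p = 0.32). Fads1, the delta-5 desaturase, was at 109 to 139 CPM in M0 (median 129), 128 to 169 CPM in M1 (median 143) and 97.3 to 123 CPM in M2 (median 110.0). It rose 1.14-fold in M1 (0.19, SE 0.03, adjusted p = 3.8e-06) and fell by 0.21 on the log2 scale in M2 (SE 0.03, adjusted p = 5.05e-07). Its M1 libraries all lay above its M2 libraries. Fads1 made up 88.9% ± 3.16 of the Fads1 and Fads2 sum per kilobase in M0, 96.6% ± 1.40 in M1 and 88.5% ± 1.48 in M2.

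Ranges over the 15 libraries did not overlap between M1 and M0 for 2 members (Scd2 and Elovl1), between M2 and M0 for 7 and between M1 and M2 for 4. Among all 12905 genes tested the shares were 28.6%, 23.4% and 35.7%. Polarization accounted for 66.4% (Elovl6) to 93.7% (Scd2) of the variance of a member's log2 CPM over the 45 libraries, and genotype for at most 2.12%.

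The genotypes were then compared within each polarization. No member was called in any of the 12 comparisons or in any of the 4 tests of whether a genotype difference changed with polarization (0 of 10 members each with edgeR, DESeq2 and limma-voom). At an unadjusted p under 0.05, 2 members (Fads1 and Elovl5) differed in 1 comparison, Faminp.284R against Faminp.254V within M1, and 0 members in the others. In that comparison 6.19% of all genes had such a p. Few genes of any kind were called. For Faminp.284R against Faminp.254I they were 0.0155% of 12905 in the mean of M0, M1 and M2, 0% within M0, 0.263% within M1 and 0.00775% within M2. For Faminp.254V against Faminp.254I they were 0.0155% in the mean and 0% within each state. For Faminp.284R against Faminp.254V they were 0% in the mean, 0% within M0, 0.0775% within M1 and 0% within M2, and in the 4 interaction tests 0%.

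Fads2 and Scd2, which varied widely between mice, had some of the wider genotype differences. Fads2 in M1 was at 2.70 ± 1.18 CPM (SD, n = 5) in Faminp.284R and 3.94 ± 1.92 CPM in Faminp.254I, a log2 difference of -0.54 with a 95% confidence interval of -1.18 to 0.10 (adjusted p = 0.84, edgeR). Scd2 in M1 was at 277 ± 90.8 CPM in Faminp.284R and 343 ± 98.4 CPM in Faminp.254I (-0.31, interval -0.71 to 0.10, adjusted p = 0.89). Scd2 was lower in Faminp.284R for 5 of the 5 mouse numbers and Fads2 for 4. With the replicate number as a block the differences were -0.31 (interval -0.63 to 0.02, adjusted p = 0.51) for Scd2 and -0.51 (-1.10 to 0.08, adjusted p = 0.57) for Fads2, and neither was called. For Acly within M1 the interval with the block was narrower, -0.09 to 0.05, with a log2 difference of -0.02. For the mean of the 3 states its log2 difference without the block was -0.0026 (interval -0.07 to 0.06), where the libraries of a mouse counted as independent.

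Fads1 in M1 was the 1 case in 90 (10 members, 3 states and 3 pairs of genotypes) in which the ranges did not overlap, against 0.296% of such cases over all genes tested and 0.62% of genes in this comparison. It was at 141, 139.9, 135, 136 and 134 CPM in Faminp.284R and at 169, 152, 151, 143 and 152 CPM in Faminp.254V, with Faminp.254I across both at 162, 149, 138, 128 and 161 CPM. The log2 difference was -0.16 (SE 0.06, unadjusted p = 0.0092) and did not pass adjustment over all genes (adjusted p = 0.59). In this comparison Fads1, Fads2, Fasn and Elovl5 were lower in Faminp.284R for 5 of 5 mouse numbers. Scd2 and Acly were lower for 4, Acaca for 3, Scd1 and Elovl6 for 2 and Elovl1 for 1. With the replicate number as a block, 3 of the 90 cases had an unadjusted p under 0.05 (edgeR). They were Fads1 and Elovl5 here and Elovl6 in M2 between the same genotypes, and none was called.

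**Figure D3:**
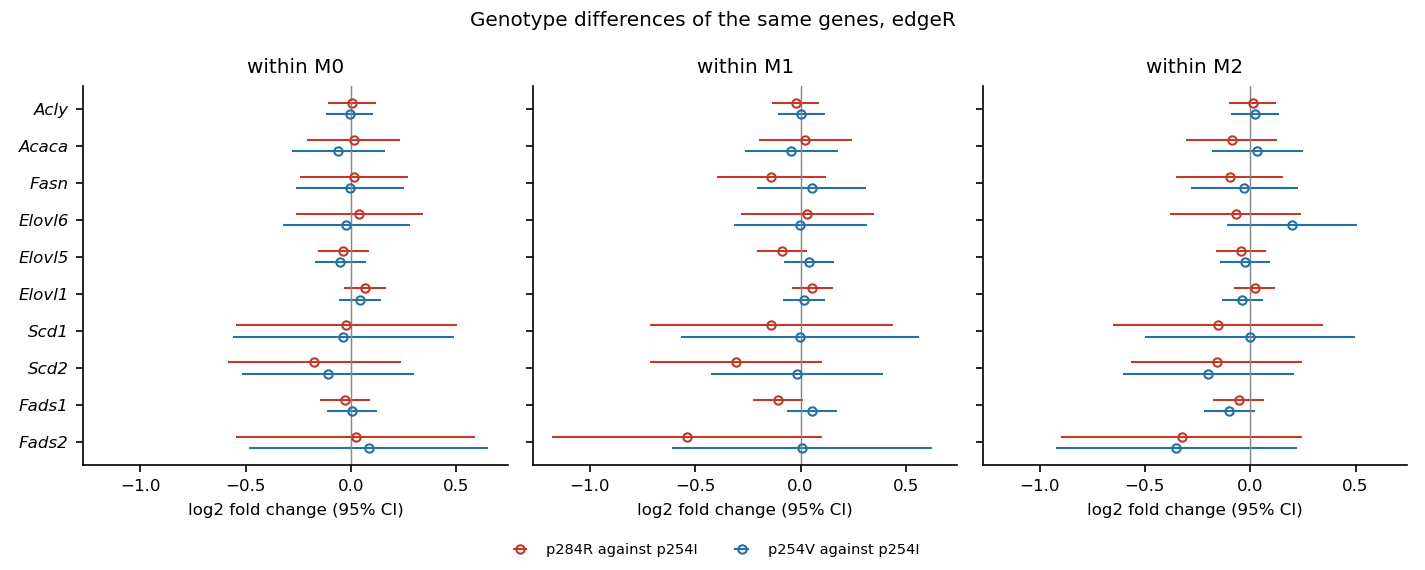
Log2 fold change (horizontal axis) with 95% confidence interval of each member in Faminp.284R (red) and Faminp.254V (blue) against Faminp.254I, in 3 panels for M0, M1 and M2. The intervals include 0 for all members, from narrow ones for Acly and Elovl1 to the widest for Fads2, which reaches -1.18 in M1.

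Some members also varied with the number of the mouse, in the same way across genotypes. The libraries numbered 2 lay above all others for 4 of 10 members in M1, 1 in M2 and 0 in M0. The share of all genes set apart in this way was not computed, so these counts do not show whether the members differ from genes at large. Deviations from the group means over 8404 genes correlated at 0.81 to 0.88 between the M1 libraries numbered 2, so the difference was not confined to the members. In M1, the 3 libraries numbered 2 held the 3 highest values of Scd1 (4.29 to 4.91 CPM, against 1.40 to 3.29 CPM in the other 12), Scd2 (419.6 to 485 against 208 to 408 CPM), Fads2 (4.74 to 7.08 against 1.76 to 4.41 CPM) and Fasn (42.6 to 45.5 against 25.5 to 35.4 CPM). These are the libraries with the 3 lowest values of Nos2. In M2 the libraries numbered 2 again held the 3 highest values of Scd1, at 17.3 to 20.6 CPM. Acly was highest in the mice numbered 1 in each of the 3 states, at 221 to 230.0 CPM in M0 against 193 to 213 CPM in the others, and Scd1 and Fads2 were lowest in these mice in M0. What the number stands for is not given, and what sets the levels of these libraries was not tested.

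**Figure D4:**
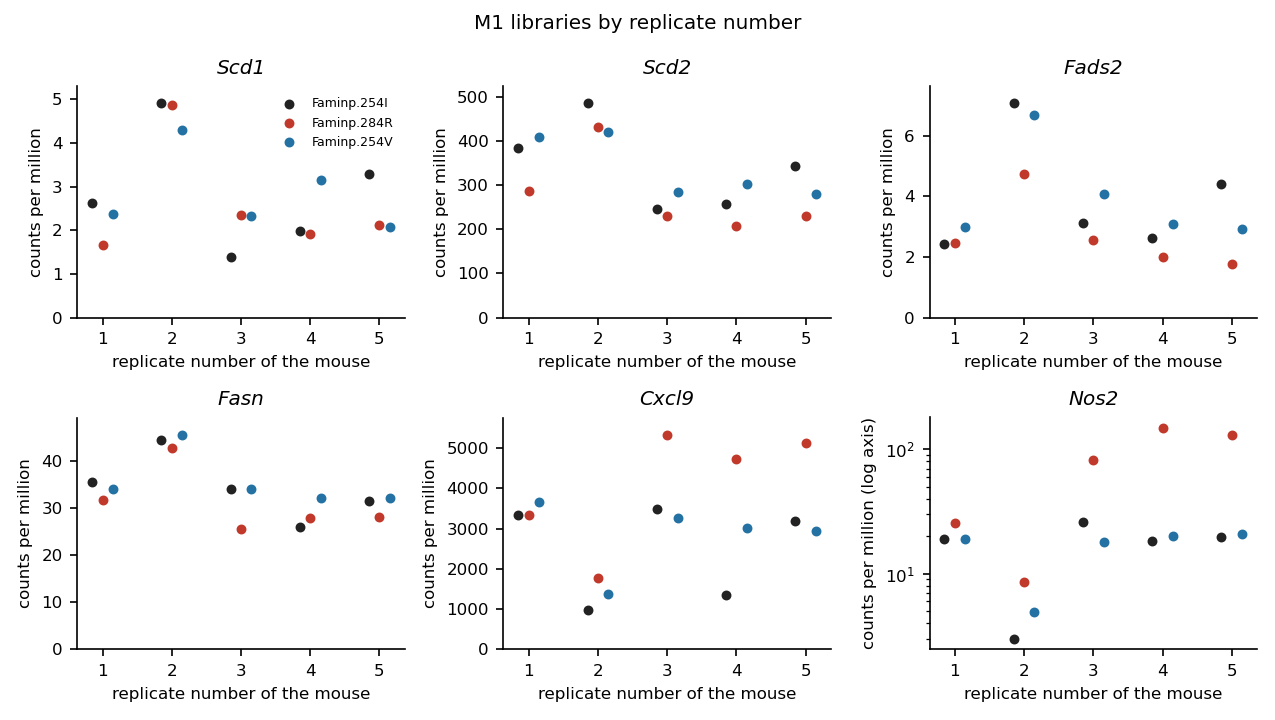
CPM (vertical axis, log scale for Nos2) in the 15 M1 libraries by number of the mouse (horizontal axis) and genotype (colour), for 4 members and for the M1 markers Cxcl9 and Nos2. The libraries numbered 2 are the 3 highest for Scd1, Scd2, Fads2 and Fasn, and the 3 lowest for Nos2.

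After removal of the group means, 35 of the 45 pairs of members had a positive correlation over the 45 libraries, with a median Pearson r of 0.30. The highest were Scd1 with Scd2 (r = 0.69), Elovl6 with Fads2 (0.63), Scd1 with Fads2 (0.63) and Scd2 with Elovl5 (0.60). Acly moved against Fads2 (-0.41) and Elovl6 (-0.38). These points share mice, replicate numbers and library scaling, so the correlations are a description of the set. Scd1 and Scd2 also share stretches of sequence, as given above. Over all 45 libraries, without removal of group means, the genes outside the set most like Scd2 were Atp5a1 and Suclg1 (both r = 0.97), which encode parts of the mitochondrial ATP synthase and of the citric acid cycle, and those most like Scd1 were Il6st, the shared receptor of the IL-6 family, and Slc30a4, a zinc transporter (both 0.95). For the other members the closest gene had r between 0.89 (Hhex with Fads1) and 0.96 (Cluh with Elovl1).

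**Figure D5:**
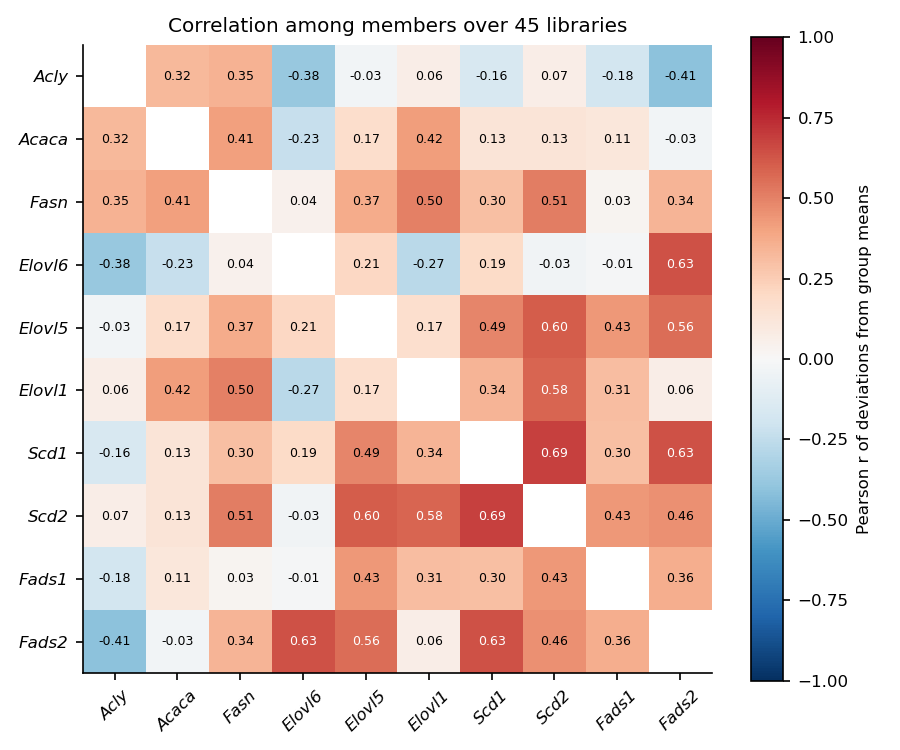
Pearson r of the members' deviations from their group means in 45 libraries, with 1 cell per pair and colour from -1 (blue) to 1 (red). The pairs among Scd1, Scd2, Elovl5 and Fads2 have values of 0.46 to 0.69, and Acly is negative with Fads2 and Elovl6.

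Other genes of the pathway were followed as a list of 44, of which 38 were tested, and 11 were called higher and 17 lower in M1 than in M0. In M2 against M0 there were 17 higher and 9 lower, and in M1 against M2 there were 11 higher and 21 lower. Of all genes tested, 37% were called higher and 40.3% lower in M1 against M0. The shares were 36.8% and 39.6% in M2 against M0, and 39% and 40.1% in M1 against M2. Taken without direction, the numbers of listed genes called were near those of genes at large. By direction they were less near, with fewer listed genes lower in M2 against M0 and more lower in M1 against M2. Whether the list differs from genes at large was not tested. The same shares of all genes apply to the smaller lists below. In M1, 7 of 10 tested regulators were lower than in M0 and 2 higher, and in M2 3 were lower and 3 higher. Srebf2, which encodes SREBP2, fell from 81.1 to 131 CPM in M0 to 47.1 to 68.5 CPM in M1 (log2 fold change -0.84) and rose to 145 to 193 CPM in M2 (0.71), with no overlap between any of the states. Insig1, a target and brake of the SREBPs, moved likewise (-0.47 in M1 and 0.64 in M2). Srebf1, which encodes SREBP1, was at medians of 70.0, 77.0 and 104 CPM and was called in M2 (0.50) but not in M1 (0.10, adjusted p = 0.084), where the fit with the replicate number as a block did call it (0.10, adjusted p = 0.033).

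Nr1h3, which encodes liver X receptor alpha, was lower in both states (-0.64 in M1 and -0.76 in M2), and Mid1ip1, an activator of acetyl-CoA carboxylase, too (-1.17 and -0.85). In M1 Nr1h3 was at 11.1, 5.37, 17.2, 21.95 and 16.9 CPM in the Faminp.254I mice 1 to 5, at 9.72, 5.03, 16.9, 16.3 and 18.3 CPM in Faminp.254V and at 17.0, 7.52, 33.4, 39.8 and 39.2 CPM in Faminp.284R, lowest in the mouse numbered 2 of each genotype. The difference of Faminp.284R from Faminp.254V in M1 was 1.05 on the log2 scale and was not called (adjusted p = 0.36, edgeR), whereas it was called with the replicate number as a block (1.00, adjusted p = 0.030). That from Faminp.254I was 0.92 (adjusted p = 0.39) and was not called with the block (0.89, adjusted p = 0.053). Without the 3 mice numbered 2 both were called (Nr1h3 adjusted p = 0.015 and 0.029, in this order).

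Of the 7 genes that supply carbon and NADPH, 3 were higher and 3 lower in M1 and 2 higher and 2 lower in M2. Idh1, the cytosolic isocitrate dehydrogenase that makes NADPH, fell from a median of 448 CPM to 107 CPM in M1 (log2 fold change -2.06) and was at 474 CPM in M2 (0.04, not called). Acss2, which makes acetyl-CoA from acetate, rose in M1 (1.14) and was not called in M2 (0.12). The citrate carrier Slc25a1 differed by -0.13 in M1 and 0.11 in M2, both called, and malic enzyme Me1 by -0.16 (not called) and -0.48 (called). The 10 partners in elongation and desaturation, among them the cytochrome b5 genes, included 7 called higher and 2 lower in M2 and 1 called higher and 4 lower in M1. One of them, the dehydratase relative Hacd4, fell in both (-0.89 and -1.78).

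Among the relatives of the members, 5 of 9 were tested, and 3 were higher and 2 lower in M1. Fads3 fell in M1 (-1.12) and rose in M2 (1.59), and Elovl7 fell in both (-1.81 and -1.27). Of the 6 genes of mitochondrial fatty acid synthesis, a separate pathway that serves lipoic acid production, 2 were higher and 1 lower in M1 and 3 were higher and 1 lower in M2, with log2 fold changes between -0.14 and 0.43. Of the 38 tested, 0 were called in any of the 16 genotype and interaction comparisons by edgeR, with 0 to 4 at an unadjusted p under 0.05 in each.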

How the data were processed

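Polyadenylated RNA was sequenced from 45 BMDM cultures as single reads of 50 bases. The authors deposited read counts per Ensembl gene and a table of CPM values for 11900 genes. The submitters' processing notes name FastQC, Trim Galore, HISAT2, limma and mm10. The series text names other trimming and alignment tools, and the counting program, the annotation and the use of strand are not given in the sources used here. All deposited CPM values came out within 0.01 of a whole read (100%) and equalled the counts.

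Levels are CPM on effective library sizes, the counts of the 12905 tested genes times the TMM factor. Libraries were grouped by their labels for genotype and polarization. Counts of 12905 genes that passed filterByExpr were fitted with edgeR 4.0.16 (R 4.3.3) as 9 groups, with TMM scaling and the robust quasi-likelihood test, and p-values were adjusted by Benjamini-Hochberg over all 12905 genes with a threshold of 0.05. A polarization effect is the mean over the 3 genotypes. The script was tested on simulated data. Exon lengths and positions came from GENCODE vM21, which held 29081 of the 29307 gene identifiers, and promoter letters from RefSeq. No library pair was identical (0 pairs). The p-values measure the spread between libraries within groups, where each library was taken to come from a different mouse. The 9-group design has no term for the mouse. In comparisons that combine polarizations, among them the genotype differences in the mean of M0, M1 and M2, cultures of the same mouse counted as independent. The p-values and intervals of those genotype differences therefore do not measure the spread between mice alone.

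The members, gene lists and tests were chosen with earlier results of these data known. All 10 members are named. Pathway genes are counted in each direction, with values for 7 set genes and for every one called with a log2 fold change beyond 1 in M1 or M2 against M0. For each member the 2 genes with the highest Pearson r were listed. Deviations of libraries with the same number from their group means correlated across genotypes at 0.12 to 0.88 in M0 and 0.30 to 0.88 in M1 (15 of 15 pairs over 0.1 each) and at -0.44 to 0.79 in M2 (13 of 15). Alternatives were DESeq2 (1.42.0) size factors and its Wald test, limma-voom (limma 3.58.1), no filter on low counts, the number or the mouse as a replicate block, and leaving out each mouse. Recovered reads, leaving out the 3 mice numbered 2, and leaving out the M1 library of Faminp.254I number 5 were added after seeing the data.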

Additional observations from a re-analysis of the deposited data

Results flagged for a closer look

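In 8 of 90 groups of 5 libraries, the highest or lowest library of a member lay apart from the other 4 by Dixon's criterion, which chance meets in about 1 of 20 groups. In the mice numbered 2, Fasn was at 45.5 CPM in M1 of Faminp.254V (others 32.0 to 34.1), Scd1 at 18.2 CPM in M2 of Faminp.254I (others 12.5 to 13.7) and at 4.86 CPM in M1 of Faminp.284R (others 1.66 to 2.34), Fads2 at 4.74 CPM in M1 of Faminp.284R (others 1.76 to 2.56), and Elovl6 at 3.02 CPM in M2 of Faminp.284R (others 4.22 to 4.66). In the mice numbered 1, Acly was at 254 CPM in M1 of Faminp.254V (others 237 to 239.7) and Elovl6 at 3.22 CPM in M1 of Faminp.254I (others 3.75 to 3.95). In mouse 3 of Faminp.254V, Fads2 was at 11.7 CPM in M2 (others 8.06 to 8.48).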

How the results depend on the processing

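The 60 fold changes followed for the members kept their side of the threshold in all 1470 refits over 25 alternatives, and those called kept their direction. The direction of differences that were not called was not compared. The mouse as a fixed block was fitted for the 30 polarization fold changes alone. The members called stayed at 9 in M1 against M0, 9 in M2 against M0, 10 in M1 against M2 and 0 between genotypes. With the replicate number as a block, or the mouse as a block (limma-voom correlation 0.221), no call of a member changed. Leaving out 1 mouse at a time moved the M1 against M0 log2 fold change of Fads2 between -1.79 and -1.59 and that of Fasn between -0.32 and -0.23. Pathway genes called ranged from 27 to 30 (28 as reported) in M1 against M0, 26 to 28 (26) in M2 against M0 and 30 to 35 (32) in M1 against M2. Counts over all genes moved more between genotypes: for Faminp.284R against Faminp.254I within M1 they ran from 0 to 109 (34 as reported) and were 64 with the replicate block, and for Faminp.284R against Faminp.254V from 0 to 65 (10) and 36. Among named pathway genes, Elovl7 in M1 against M2 lost its call without the 3 mice numbered 2 (-0.54, edgeR adjusted p = 0.051). It also lost it without mouse 3 of Faminp.254I, mouse 4 or 5 of Faminp.254V or mouse 3 of Faminp.284R (edgeR adjusted p = 0.051 to 0.083). Me1 gained a call with the replicate number as a block (0.30, edgeR adjusted p = 0.013) and in some other alternatives. The cause was not tested. The lowest M1 libraries held 29 reads of Fads2, 35 of Scd1 and 56 of Elovl6, so counting error is largest there.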
